A study of Homo sapiens with 4 samples.

Results

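The contacts described here join the ribosomal RNA genes (rDNA) to the outer ends of human autosomes. A contact region was taken as a member where its midpoint lay in the first or last 500 kb of an autosome by hg38 lengths. The ends of the chromosome 4 and chromosome 10 long arms, of the chromosome 16 short arm and of the short arms of chromosomes 13, 14, 15, 21 and 22 were left out, which left 36 of 44 ends. The 4 libraries held 396, 383, 363 and 400 such regions (untreated replicates 1 and 2, hemin replicates 1 and 2), together 1542 of 197703 regions. The cells were K562, an established human erythroleukemia line, either untreated or kept for 108 h with 50 µM hemin, an agent that induces erythroid differentiation. In 4C, cross-linked chromatin was cut with EcoRI and ligated, and the DNA joined to a viewpoint in the rDNA was amplified and sequenced. Each group had 2 libraries, called biological replicates by the study, and the labels do not say that they come from separate cultures, so the p-values measure the spread between these libraries only. K562 is 1 cell line with an abnormal karyotype, and hg38 does not show which ends it carries in how many copies.

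Subtelomeres are the mosaic zones between the telomere repeats and the unique sequence of a chromosome arm. They are built of segments copied between chromosomes. Among these are olfactory receptor genes of the OR4F group, WASH genes for an actin-nucleating complex, RPL23AP pseudogenes and non-coding FAM138 genes. The rDNA arrays themselves lie near the ends of the short arms of the acrocentric chromosomes, and the nucleolus forms around them. Sequence of ends can be found beside the nucleolus or the nuclear lamina. Since a read of a copied segment can be aligned to any of its copies, a count at 1 end may come from another.

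In all, the libraries held 31721628, 34000240, 19548906 and 20577487 reads in 50751, 50221, 47042 and 49689 regions. Between 50.5% and 53.2% of the reads lay within 10 kb of the viewpoint copies, and 15336163, 16382809, 8938862 and 9475742 autosomal reads lay outside them. These last totals are the base of the shares given here and of RPM, the usual scaling of reads to library depth. A count of 0 is treated as allowing up to 3 reads, from 0.183 to 0.336 RPM, and limits of this kind cover counting error only.

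The contact sequences that the results turn on are given first, from hg38 on its forward strand and in lower case, with the EcoRI site in capitals. The first set holds the strongest regions of 4 loci that were read in both groups, at the short-arm ends of chromosomes 18 and 4.
18p, chr18:110800-111088: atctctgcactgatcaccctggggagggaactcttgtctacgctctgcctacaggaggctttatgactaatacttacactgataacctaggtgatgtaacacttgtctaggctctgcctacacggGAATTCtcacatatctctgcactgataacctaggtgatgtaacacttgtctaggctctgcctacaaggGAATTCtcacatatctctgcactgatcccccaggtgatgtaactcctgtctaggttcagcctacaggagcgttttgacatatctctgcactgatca
4p, chr4:17641-17933: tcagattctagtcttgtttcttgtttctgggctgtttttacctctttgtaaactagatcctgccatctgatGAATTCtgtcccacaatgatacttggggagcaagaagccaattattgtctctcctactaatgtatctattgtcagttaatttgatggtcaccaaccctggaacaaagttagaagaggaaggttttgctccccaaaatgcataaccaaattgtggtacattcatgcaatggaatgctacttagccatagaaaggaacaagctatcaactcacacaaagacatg
4p, chr4:20495-20601: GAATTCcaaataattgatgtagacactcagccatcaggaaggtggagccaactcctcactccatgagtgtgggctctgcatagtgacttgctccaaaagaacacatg
4p, chr4:45095-45346: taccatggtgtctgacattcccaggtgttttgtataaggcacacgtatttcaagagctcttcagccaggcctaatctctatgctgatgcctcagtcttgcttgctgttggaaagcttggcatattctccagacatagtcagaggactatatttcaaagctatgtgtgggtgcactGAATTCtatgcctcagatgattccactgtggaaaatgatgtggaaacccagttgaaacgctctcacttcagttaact
The first lies in an intron of ROCK1P1, a pseudogene of the ROCK1 kinase, and its least repeated 32-base word was also found at the long-arm ends of chromosomes 4 and 10. The pair after it has copies at the chromosome 4 long-arm end. The last was found once in the hg38 chromosomes.

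A second set shows loci that were read in 1 group only. Those at 5p, 10p and 14q were read only after hemin, and those at 9p, 2p and 18p only in untreated cells.
5p, chr5:32660-32729: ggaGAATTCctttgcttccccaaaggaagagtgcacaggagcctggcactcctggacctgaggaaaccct
10p in ZMYND11, chr10:233585-233656: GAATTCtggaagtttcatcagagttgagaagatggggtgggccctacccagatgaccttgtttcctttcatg
10p in DIP2C, chr10:284954-285034: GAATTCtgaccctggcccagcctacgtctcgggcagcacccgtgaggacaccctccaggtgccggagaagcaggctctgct
14q, chr14:106809405-106809483: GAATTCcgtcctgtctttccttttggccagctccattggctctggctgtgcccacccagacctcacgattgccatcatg
9p in DOCK8, chr9:271013-271118: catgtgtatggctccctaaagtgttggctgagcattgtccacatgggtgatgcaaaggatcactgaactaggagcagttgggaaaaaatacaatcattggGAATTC
2p, chr2:51774-51850: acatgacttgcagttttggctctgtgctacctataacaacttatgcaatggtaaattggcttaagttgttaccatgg
18p in COLEC12, chr18:374048-374141: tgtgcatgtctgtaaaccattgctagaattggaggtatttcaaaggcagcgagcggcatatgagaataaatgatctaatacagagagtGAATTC
Each of these but the 2p sequence holds an EcoRI site, and the nearest site to the 2p locus lay 2222 bases away. In the single libraries, 50.0%, 51.2%, 56.2% and 54.3% of the member regions held an EcoRI site within 100 bases, against 53.1%, 53.0%, 56.7% and 56.0% of the other regions.

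Another set shows segments that several ends share. The first lies in an exon of FAM157B, a non-coding gene, at 9q, and the second in an exon of FAM138D at 12p, where no EcoRI site falls in the stretch.
9q, chr9:138251451-138251555: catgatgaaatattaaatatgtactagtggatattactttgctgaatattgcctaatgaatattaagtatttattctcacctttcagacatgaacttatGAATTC
12p, chr12:36740-36790: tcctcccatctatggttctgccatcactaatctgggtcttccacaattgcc
Their reads are given further on.

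The first question was how large a part of the contacts the ends took. They held 104714 and 112428 reads in untreated cells and 47310 and 51958 after hemin. Their share of the autosomal reads was 0.683% and 0.686% in untreated cells and 0.529% and 0.548% after hemin. The groups did not overlap, and the exact permutation test gave p = 0.333, the smallest value that 2 libraries against 2 allow. The ends hold 0.598% of the resolved autosomal bases and 0.490% of the EcoRI sites.

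The difference between the groups lay in 2 ends. The short-arm ends of chromosomes 4 and 18 held 59.6% and 59.7% of the end reads in untreated cells, and 48.5% and 46.1% after hemin. Without them the share was 0.277% ± 0.000286 in untreated cells and 0.285% ± 0.0163 after hemin (mean ± SD, n = 2 each), an order opposite to that with them. With regions counted in place of reads, the share was 0.795% ± 0.0120 and 0.809% ± 0.0244, so the numbers of regions did not show the difference either. Leaving out those 2 ends was chosen after seeing the data.

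Each end was then set against the rest of its own chromosome, by reads per Mb of resolved sequence. The median ratio over the 36 ends was 0.619 and 0.626 in untreated cells and 0.455 and 0.538 after hemin. In the same libraries 14, 15, 9 and 13 ends lay above the rest of their chromosome. The ratio depends on what it is set against, since a few very strong windows raise the mean of a chromosome. Against the median window of the chromosome, the median ratio over the ends was 1.63, 1.74, 0.997 and 1.22. By numbers of regions it came to 0.986, 1.07, 1.04 and 1.19. The ends also differ from the rest in sequence, with 237 EcoRI sites per Mb against 290 and a GC content of 46.4% against 40.9%, and per EcoRI site the median ratio was 0.708, 0.724, 0.596 and 0.761.

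**Figure D1:**
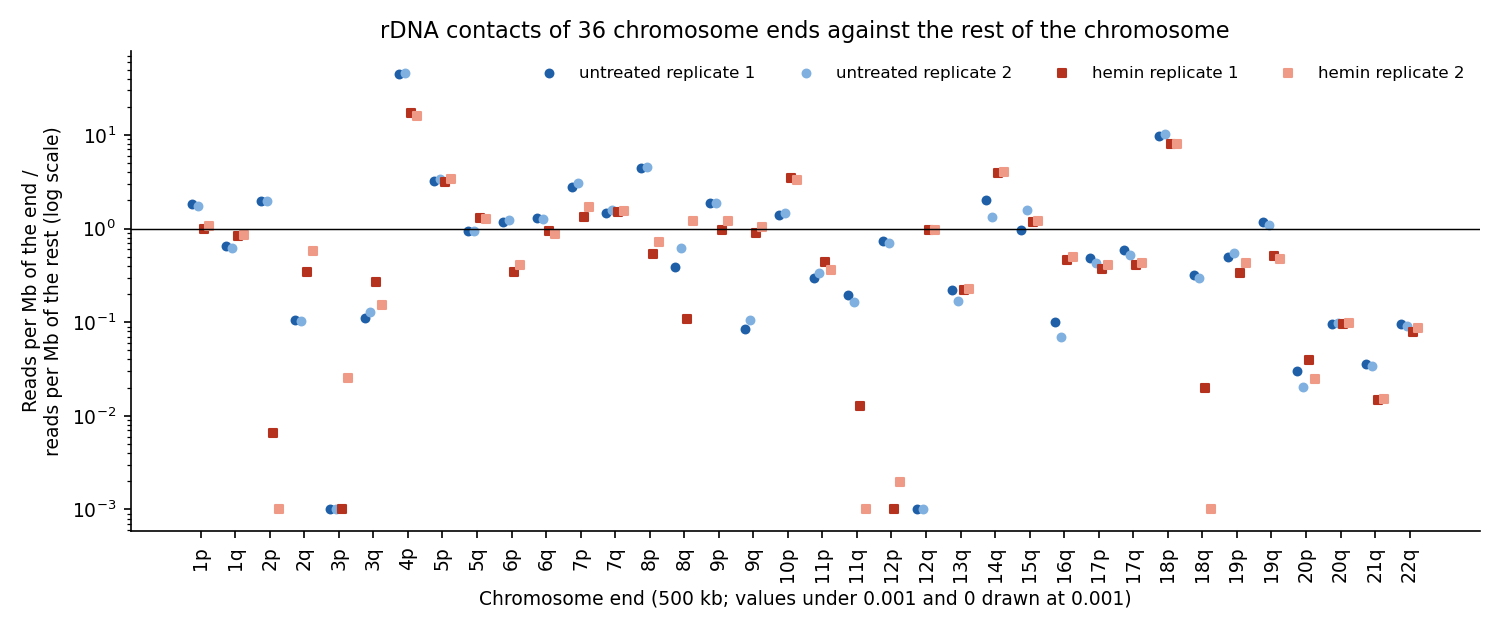
Reads per Mb of each of the 36 chromosome ends divided by reads per Mb of the rest of the same chromosome (log scale), with 1 point for each of the 4 libraries and a line at a ratio of 1. The ends 4p and 18p stand highest in all 4 libraries, and the ends of chromosomes 20, 21 and 22 stand low in all of them.

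Across the 4 libraries, 7 ends lay above the rest of their chromosome each time: 4p, 5p, 7p, 7q, 10p, 14q and 18p. This does not mean that the same places were kept. Contact loci (overlapping regions merged, described further on) with at least 10 reads in all 4 libraries numbered 16 at 4p and 3 at 18p. They numbered 0 at 5p, 7p, 7q, 10p and 14q. The ratio of 4p was 45.0 and 46.4 in untreated cells and 16.98 and 16.01 after hemin, and that of 18p was 9.87, 10.4, 7.96 and 7.98. These were the highest ratios in each library. At 5p the ratio was 3.26, 3.35, 3.13 and 3.42, with no gap between the groups. A further 18 ends lay below the rest of their chromosome in all 4 libraries. Among them the ends 20p, 20q, 21q and 22q had ratios of at most 0.0986 in every library. Chromosomes 21 and 22 carry rDNA arrays. Beside these ends the rest of the chromosome was high, with 35654 reads per Mb on chromosome 20, 122891 on chromosome 21 and 25952 on chromosome 22 in untreated replicate 1, against 1500 on chromosome 4. At the other extreme, 3p had 0 reads in 3 libraries and 15 reads in hemin replicate 2.

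The next comparison asked which ends changed with hemin. Of the 36 ends, 35 had enough reads for the test (at least 10 in at least 2 libraries), and it was fitted over all 5379 windows of 500 kb that passed, with edgeR's quasi-likelihood test. After hemin 8 ends were higher and 17 were lower at an adjusted p under 0.05. Of all windows, 77.4% were called, 39.0% higher and 38.3% lower, so that ends were called about as often as other windows (71.4%), with 22.9% higher and 48.6% lower. The median log2 fold change was -0.55 over the ends and 0.03 over all windows. In the single libraries the strongest region of an end held a median of 53.6%, 55.2%, 42.8% and 41.3% of its reads. The call of an end can thus rest on 1 or a few places in its 500 kb. Scaling by total reads in place of TMM raised the median of all windows by 0.453 and gave 12 ends higher and 13 lower. Of all 5379 windows it called 2579 higher and 1616 lower. No called end had the opposite direction with that scaling, but 6q, 7p, 17p and 20q were no longer called and 1q, 3q, 5p and 11p were. With each region counted once, which left 20 ends to test, 3 were higher and 2 lower, beside 231 and 230 of all 1323 windows tested. Against the rest of its own chromosome, 8 ends were higher and 13 lower, with the calls of 7q, 17p, 19p, 20q and 22q lost and 1q gained. In that setting 2336 of all 5379 windows were higher and 1813 lower.

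**Figure D2:**
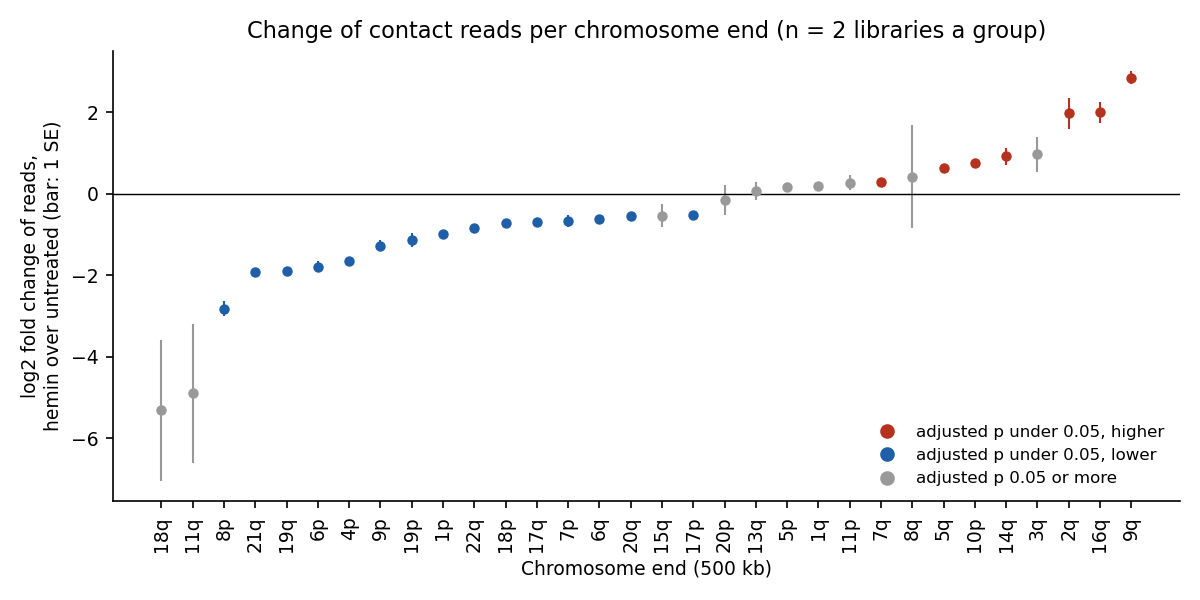
Log2 fold change of contact reads (hemin over untreated, edgeR, bar 1 SE, 2 libraries a group) for the ends with over 4 reads in each group, in order of size. Blue ends were lower and red ends higher at an adjusted p under 0.05, and the long bars of 18q, 11q and 8q mark ends whose hemin libraries differed.

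In untreated cells the end with the most reads was 4p, with 33037 and 34813 reads in untreated cells and 8380 and 8683 after hemin. In RPM this was 2154 and 2125 against 937 and 916, and the fold change was -1.66 on the log2 scale (SE 0.029, adjusted p = 0.000325). The groups did not overlap. With regions counted in place of reads the call was lost (-0.26, adjusted p = 0.331). The end 18p, which led after hemin and by the mean over the 4 libraries, had 29352, 32337, 14562 and 15259 reads, and its log2 fold change was -0.72 (SE 0.042, adjusted p = 0.000954), or -0.26 when scaled by total reads. In the repeat-filtered regions, found by the study without reads that hold nothing but repeats, which had at most 6.43% of the 18p reads, its direction turned to 0.31 (adjusted p = 0.0037). The left-out end 4q, which shares sequence with both, had 2503, 2341, 1539 and 1532 RPM.

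Of the remaining ends, 9p and 14q had the highest mean RPM. The end 9p fell from 5103 and 5365 reads to 1472 and 1971 (-1.28 on the log2 scale, SE 0.13, adjusted p = 0.00338). With ends of 250 kb, which leave out the DOCK8 locus described further on, the log2 fold change was 0.41 (adjusted p = 0.14), and with regions counted in place of reads the call was lost (-0.33, adjusted p = 0.567). The end 14q, which holds the variable segments of the immunoglobulin heavy chain locus, had 2649 and 1877 reads before and 3229 and 3596 after hemin (log2 fold change 0.92, SE 0.22, adjusted p = 0.028). This call was not stable: without hemin replicate 1 the adjusted p was 0.0905 and without hemin replicate 2 it was 0.104. The log2 fold change was 0.01 in repeat-filtered regions (adjusted p = 0.886), -0.07 with each region counted once (adjusted p = 0.911) and 3.41 in single-copy regions.

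Some ends were read in 1 group almost alone. The end 12q had 0 reads in both untreated libraries and 953 and 1005 after hemin, at least 410-fold higher when 3 reads are allowed in each untreated library. Its loci lay in an intron of ZNF891, a zinc finger gene, in an intron of CHFR, a ubiquitin ligase of a mitotic checkpoint, which overlaps ZNF605 there, and between genes. The other arm of the same chromosome went the opposite way. The end 12p had 1253 and 1315 reads in untreated cells and 0 and 2 after hemin, a ratio of 1022 with a counting interval of 283 to 8441. Of its 6 tested loci, 3 lay in genes, in an exon of FAM138D and in introns of CCDC77 and of KDM5A, a histone demethylase. In untreated cells 38.6% and 43.2% of the reads of these 6 loci lay in segments shared with other ends, and this part cannot be assigned to 12p itself. The end 2p had 1725 and 1825 reads before and 4 and 0 after hemin, a ratio of 706 (276 to 2593), with its second strongest locus in an intron of ALKAL2, a ligand of the ALK receptor.

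The other ends with large changes kept reads in both groups. The end 9q rose from 209 and 270 reads to 1241 and 1505 (log2 fold change 2.85, SE 0.16, adjusted p = 0.000912). Most of the new reads fell in 2 loci of CACNA1B, which encodes a neuronal calcium channel subunit, with 492 and 494 reads in one and 429 and 466 in the other, and none in untreated cells. The end 16q rose from 176 and 126 to 452 and 511 reads (log2 fold change 2.00, SE 0.25, adjusted p = 0.00539). Of the reads of its tested loci, 81.8%, 83.3%, 99.5% and 99.5% lay in segments shared with other ends, so the rise cannot be assigned to 16q itself. The end 2q rose from 93 and 95 to 207 and 388 reads (1.98, SE 0.38, adjusted p = 0.0158), with hemin libraries that lay apart but above both untreated ones. Without untreated replicate 1 or 2 its adjusted p was 0.0738 and 0.0756, and with ends of 250 kb its value was 1.19 (adjusted p = 0.147). At 8p the reads fell from 3565 and 3800 to 343 and 491 (-2.82, SE 0.18, adjusted p = 0.00115), while with each region counted once the value was 0.03 (adjusted p = 0.958). At 21q they fell from 2173 and 2225 to 442 and 477 (-1.93, SE 0.052, adjusted p = 0.000375). Segments shared with other ends held 27.4%, 29.6%, 94.5% and 96.4% of the reads of the tested 8p loci. At 21q they held 3.82%, 4.48%, 74.5% and 73.5%. At 5p 2926 and 3167 reads stood beside 2548 and 2878, and the test was not passed (0.16, SE 0.053, adjusted p = 0.0609). Scaled by total reads 5p was called higher (0.62, adjusted p = 0.00189), with 191 and 193 RPM before and 285 and 304 after hemin. The like totals of 5p came from different loci. Of its 11 tested loci, 7 were read only in untreated cells and 4 only after hemin. The locus 32660 to 32729, described further on, held 86.8% and 86.7% of the 5p reads after hemin.

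Among the remaining called ends, 19q fell from 1969 and 1920 reads to 419 and 411 (-1.90, SE 0.079) and 6p from 833 and 930 to 178 and 229 (-1.79, SE 0.14). The 19q fall included a locus of SLC27A5, which acts in bile acid conjugation and fatty acid uptake in liver, with 1050 and 1057 reads before and 0 after hemin. At 6p the locus of DUSP22, a dual-specificity phosphatase gene, had 647 and 684 reads before and 0 after. The end 10p rose from 1880 and 2082 to 2659 and 2679 reads (0.76, SE 0.062), and 5q from 758 and 791 to 949 in both hemin libraries (0.62, SE 0.063). Smaller changes were called at 7q (0.30, SE 0.063) and 17p (-0.51, SE 0.077), and both calls depended on the scaling. Against the rest of the chromosome 7q had a value of 0.01 and 17p one of -0.22 (adjusted p = 0.171), and scaled by total reads 17p had -0.06 (adjusted p = 0.588). Of the 3 tested loci of 7q, 1 was read only in untreated cells and 2 only after hemin.

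The 11 ends that were not called were 1q, 3p, 3q, 5p, 8q, 11p, 11q, 13q, 15q, 18q and 20p. In 3 of them the hemin libraries differed widely. At 8q the hemin libraries had 69 and 837 reads around untreated values of 307 and 528. At 18q and 11q the untreated libraries had 753 and 742 and 207 and 183 reads, while hemin replicate 1 had 29 and 10 and hemin replicate 2 had 0 in both.

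Below the level of whole ends, regions that overlapped in any of the libraries were merged into contact loci. The ends held 854 loci, and 349 of them had at least 10 reads in at least 2 libraries. In the fit over 42689 autosomal loci, 147 of the 349 were higher and 174 lower after hemin. Of all loci, 95.0% were called (46.9% higher, 48.1% lower), against 92.0% of the end loci (42.1% and 49.9%). The median log2 fold change was -0.85 over the end loci and -0.28 over all loci. A count this close to the background says nothing particular about the ends. Without untreated replicate 1 the lower loci came to 86, and without untreated replicate 2 to 79.

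The loci divided into those of 1 group and a few that both groups shared. At least 10 reads in both untreated libraries and 0 in both hemin libraries were found at 146 loci (41.8%, against 43.6% of all autosomal loci). The opposite held for 133 loci (38.1%, against 42.6%). Only 29 loci had at least 10 reads in all 4 libraries (8.31%, against 6.76%). Of these 29, 16 lay at 4p and 3 at 18p, and the 34 other ends held 10 among 283 tested loci. In reads, the shared loci took 74.7%, 74.4%, 90.1% and 90.6% of the counts at 4p and 18p, and 4.58%, 4.31%, 3.64% and 3.63% at the other ends.

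**Figure D3:**
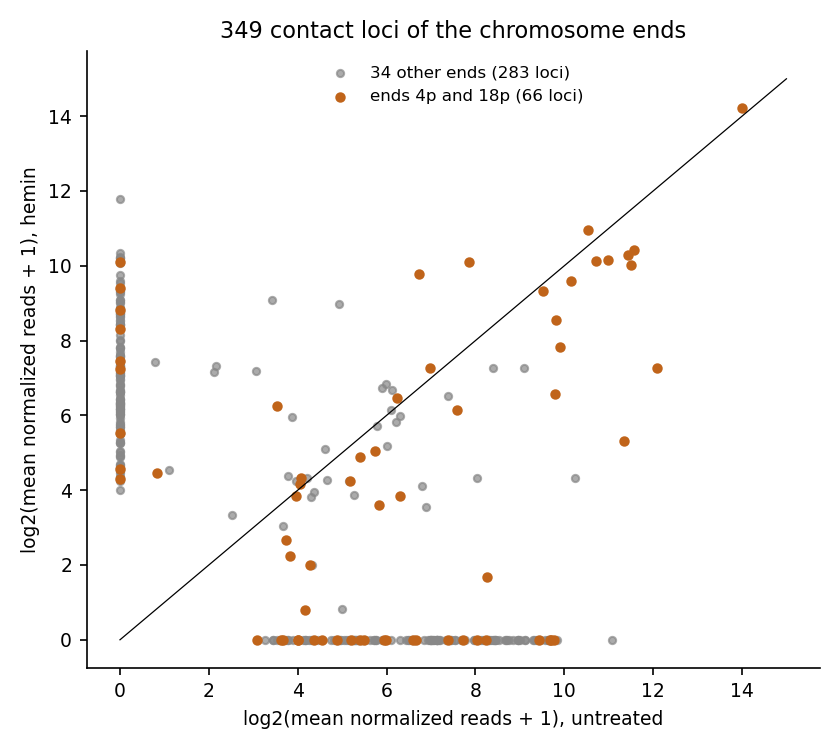
Mean normalized reads of the 349 tested contact loci on a log2 scale, untreated against hemin, with the loci of 4p and 18p in orange and those of the other 34 ends in grey. Most grey loci lie on one of the axes, with reads in 1 group only, while many orange loci lie near the diagonal.

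Replicates of a group shared most of their regions. Of the member regions of a library, 66.8% to 77.5% overlapped a region of the other replicate, and 21.8% to 22.2% a region of the other group. In the rest of the genome files these ranges were 70.5% to 74.7% and 17.2% to 17.6%. Without 4p and 18p, 10.9% to 14.4% of the regions of the ends were met in the other group. By reads, the regions met in the other replicate held 94.5% to 98.5%.

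The strongest locus of all lay at 18p, 110 kb from the chromosome end in the ROCK1P1 intron. It had 21418, 22379, 12585 and 13112 reads, which is 1397, 1366, 1408 and 1384 RPM, so its share hardly moved. On the scale of the fit over loci its log2 fold change was 0.22 (SE 0.021, adjusted p = 0.000285), and with the scaling of the windows it was -0.44, so that no direction can be given to it. It made up most of the 18p reads. The locus 107383 to 107500 of 18p, further out and with copies at the chromosome 10 long-arm end, fell from 3605 and 3801 to 749 and 933 reads (-1.15, SE 0.098, adjusted p = 0.000182). A neighbour at 107111 to 107216 went from 1058 and 1159 reads to 0 in both hemin libraries, at least 186-fold lower. This neighbour shares sequence with the chromosome 10 long-arm end and with chromosome Y, so the loss cannot be assigned to 18p itself. The nearest EcoRI site lay 3666 bases from it, and 3425 bases from the locus 107383 to 107500.

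At 4p the contacts formed a cluster in the outer 100 kb. Of the 33 EcoRI sites there, 18 had a region of at least 10 reads in both untreated libraries, 15 in both hemin libraries and 14 in both groups. Among the 124 sites in the inner part of the same end, 2 and 5 sites were used, and none in both groups. In the rest of the autosomes 2.11% and 2.24% of the sites were used, and 13.1% of those used in untreated cells were used after hemin too. The sites used in the 34 ends other than 4p and 18p came to 3.53% and 3.17%, with 9.38% shared.

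**Figure D4:**
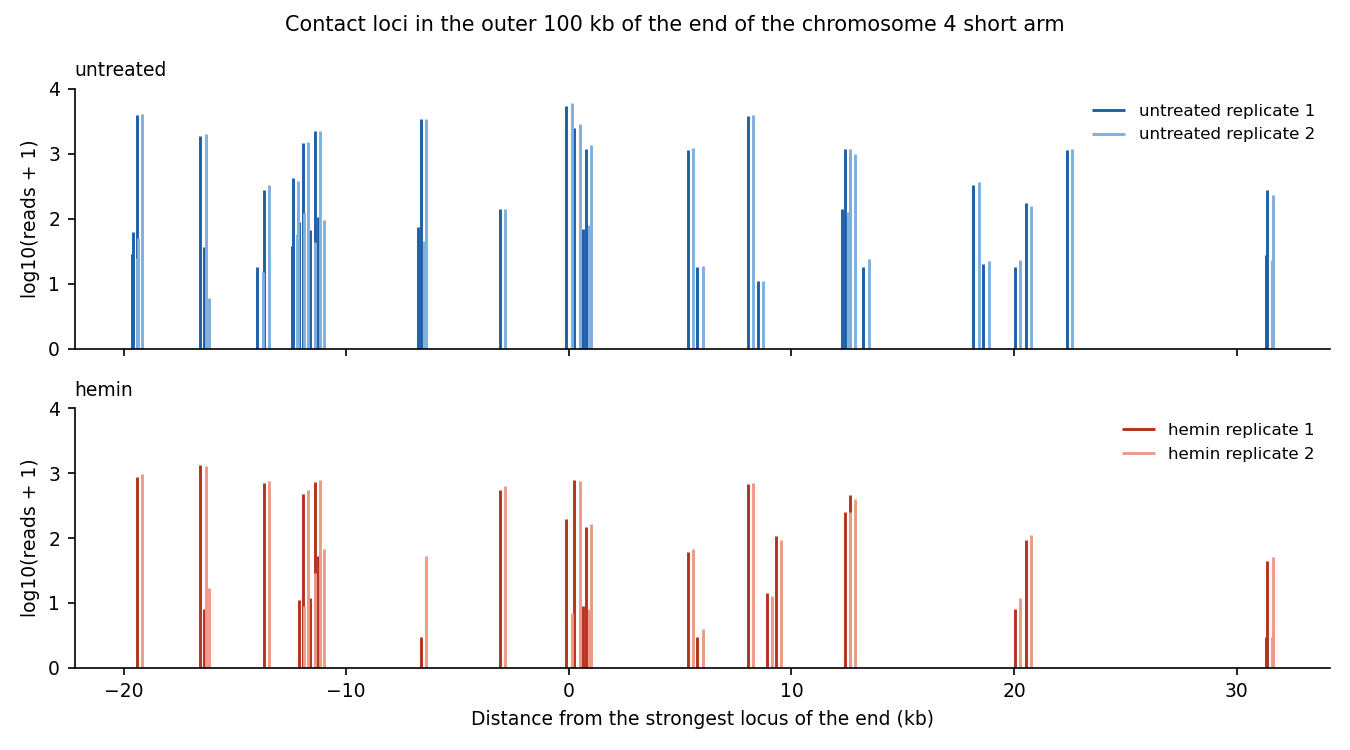
Reads of each tested contact locus in the outer 100 kb of the chromosome 4 short arm, as log10(reads + 1), by its distance in kb from the strongest locus of that end, with untreated libraries above and hemin libraries below. Some places carry reads in both groups and others in 1 group only, and of the 45 tested loci of the whole end 16 were read in all 4 libraries.

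Within the 4p cluster the loci changed unequally. The locus 17638 to 17933, shared with the chromosome 4 long-arm end, had 3916, 4132, 877 and 969 reads (-1.13, SE 0.058, adjusted p = 2.6e-05). The single-copy locus 45095 to 45346 fell in like manner, from 3808 and 3909 to 686 and 706 reads (-1.48, SE 0.055, adjusted p = 9e-06). At 37299 to 37496 the counts were 2513, 2845, 771 and 766 (-0.81, SE 0.072). The locus 36929 to 37179 had the deepest fall of the loci named here that had reads in both groups, from 5425 and 6105 reads to 196 and 6, with hemin libraries that differed by far more than the untreated ones (-4.81, SE 1.47, adjusted p = 0.025, and 0.231 and 0.236 without untreated replicate 1 or 2). By contrast 20495 to 20601 had 1887, 2032, 1347 and 1303 reads, a log2 fold change of 0.43 in the fit over loci and -0.23 with the scaling of the windows. Above all these, 33936 to 34150 rose from 142 and 139 to 546 and 637 reads (3.06), a locus chosen after its values were seen. It shares sequence with a 13q locus that went the other way, from 227 and 162 reads to 0 in both hemin libraries. In a coding exon of ZNF595, a zinc finger gene, the locus 59407 to 59536 had 1147 and 1173 reads before and 0 after hemin, at least 194-fold lower.

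The other loci with the largest changes had a group at 0. The 5p locus 32660 to 32729, 25469 bases from the nearest gene, had 2212 and 2494 reads after hemin and none before, at least 1557-fold higher. It shares sequence with a tested locus of 13q. Both 14q loci lay near variable heavy chain genes, at 106668960 to 106669002 with 789 and 808 reads and at 106809405 to 106809484 with 737 and 834, and 0 in untreated cells. They were at least 529-fold and 520-fold higher. In the opposite direction the 9p locus 271012 to 271118, in an intron of DOCK8, a signalling protein of immune cells, had 2750 and 2999 reads before and 0 after hemin, at least 482-fold lower. The 2p locus 51774 to 51850, 4904 bases from FAM110C, went from 1173 and 1250 reads to 0, at least 203-fold lower. In an intron of COLEC12, a scavenger receptor gene at 18p, 374048 to 374141 went from 1024 and 1162 to 0, at least 183-fold lower.

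Loci of 1 gene could go both ways. In ZMYND11, which encodes a reader of a histone mark at 10p, the intronic locus 233585 to 233656 had 912 and 811 reads only after hemin, at least 572-fold higher. In another intronic place of the gene, the locus 245012 to 245108 had 971 and 1051 reads only in untreated cells (chosen after its values were seen). Summed over the 6 tested loci of the gene, the reads were 1265, 1334, 1274 and 1178. In DIP2C at the same end, 284954 to 285034 had 808 and 816 reads only after hemin. Over all 52 protein-coding genes that held a tested locus, 9 had loci in both directions, 17 only higher and 26 only lower ones, with overlapping gene models counted separately. Only 30 of the 52 held more than 1 tested locus, and a gene with 1 locus could not show both directions. Genes outside the ends were not counted in this way. Of all autosomal loci 46.9% were called higher and 48.1% lower, so nothing particular to these genes is read from the counts. The genes with the most loci were PDCD6-AHRR (8 loci, 2 higher and 6 lower), DOCK8 (4 higher, 3 lower) and ZNF595 (0 higher, 5 lower, 2 not called).

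Reads of whole genes, summed over the tested loci in each, were often found in 1 group alone. In untreated cells only, reads lay in MYT1, a zinc finger factor of neural cells at 20q (1309 and 1465), in TARS3, a threonyl-tRNA synthetase gene at 15q (1237 and 1390), in DIP2A at 21q (1065 and 1108) and in TXNL4A, a spliceosome gene at 18q (722 and 742). WASHC1 at 9p had 1069 and 1013 reads in the same group, and 3 of its 4 loci belong to families with copies at 15q and other ends. After hemin only, reads lay in CACNA1B at 9q (939 and 1011), in USP14, a proteasome-bound deubiquitinase gene at 18p (822 and 891), in PCMTD2 at 20q (586 and 543) and in B3GNTL1 at 17q (376 and 352). At the inner part of 5p, AHRR, the repressor of the aryl hydrocarbon receptor, had 975, 1030, 267 and 278 reads over 6 loci, 2 of them higher and 4 lower. These genes were chosen after their values were seen, and every one of their loci stands in the counts above.

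The position of a locus in its gene varied. Of the 349 loci, 154 lay outside genes, 148 in introns, 30 in exons of non-coding genes, 9 in untranslated regions and 8 in coding exons. In introns 67 were higher and 65 lower, and outside genes 64 were higher and 79 lower. Of the 29 loci read in all 4 libraries, 22 lay outside genes.

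Gene groups typical of chromosome ends were counted by loci in them or within 2.5 kb. Near genes whose symbols begin with ZNF, 18 loci of 8 genes were tested, and 7 were higher and 9 lower (median log2 fold change -0.78, or -0.73 with loci at 0 set to their bound). Near olfactory receptor genes 7 of 17 loci were higher and 10 lower (median -9.96, at bounds -4.79). For LINC genes the counts were 6 and 5 of 12 (median 3.91, at bounds 1.82). Families duplicated at ends, such as WASH, DDX11L, OR4F, TUBB8, FAM138, FAM157 and RPL23AP, had 51 tested loci, of which 18 were higher and 29 lower (median -7.89, at bounds -3.10). Over all autosomal loci the median was -0.28 in both forms. Among all autosomal loci 46.9% were called higher and 48.1% lower, and many loci of these groups are copies that can exchange reads, so nothing particular to a group is read from its count. These medians rest on loci without reads in 1 group, for which the fitted size has no upper limit.

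Copied segments carried a part of the contacts both at 4p and 18p and at the 34 other ends. By shared 32-base words, 118 of the 349 loci fell into 27 families that joined 2 to 10 ends. In the 34 ends they took 24.6%, 24.6%, 29.2% and 29.3% of the reads of the tested loci, and at 1p 97.2% to 99.5%. The families leave out copies at the left-out ends 4q and 10q. The 138 tested loci shared with another chromosome end, with these ends included, took 46603, 48744, 22872 and 25152 reads. Without 4p and 18p they took 9381, 9853, 4756 and 5960. All tested loci held 62183, 65518, 22868 and 23902 reads at 4p and 18p and 40642, 42476, 23461 and 25939 elsewhere. Shared loci thus took most of the reads summed over 4p and 18p, and a smaller part of those summed over the other ends. The strongest 18p locus, itself shared, held 21418, 22379, 12585 and 13112 reads, so the sum does not give the part at 4p alone. Single-copy regions held 38.1%, 37.9%, 30.1% and 17.3% of the 4p reads. At 18p they held 7.39%, 7.25%, 7.09% and 7.30%. Of 26 families with at least 2 called loci, 20 went 1 way at all of these (11 higher, 9 lower), and 6 went both ways. Since the copies of a family can exchange reads in the alignment, they are not separate measurements.

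The OR4F segment, named for its olfactory receptor genes, shows this most plainly. At 1p, 5q, 6p, 6q, 8p, 9q, 11p and 19p its locus had 145 to 176 reads in untreated replicate 1, 174 to 205 in untreated replicate 2, and 0 in both hemin libraries. Near the same genes at 6q, 8p, 11p and 19p, another EcoRI site had 98 to 126 and 106 to 131 reads in the hemin libraries and 0 in untreated cells. The reads were spread evenly over the copies in both cases.

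Some other families were also read in 1 group alone, though not all as evenly. The family at the most ends, 10, went both ways, with 3 of its 11 loci higher and 6 lower. An 8p locus of that family fell from 553 and 600 reads to 0, and its 4p locus rose from 275 and 335 to 711 and 753. The segment at 1p, 9p, 12p, 15q and 19p that is printed above from 12p, with FAM138 genes at or near all its loci but 1 of those at 1p, had 359 to 479 and 418 to 483 reads at its 6 loci in the untreated libraries and 0 after hemin. The FAM157 segment, printed from 9q, had 71 to 88 and 63 to 110 reads at 6 ends after hemin and 0 before. A segment at 1q, 2q, 5q, 17q, 19q, 21q and 22q had 43 to 275 and 60 to 300 reads after hemin and 0 before. It includes the loci closest to a chromosome end, which lay 11.3 kb from the end of 17q, 13.3 kb from that of 19q and 13.6 kb from that of 2q, and were at least 175-fold, 189-fold and 38.2-fold higher. Their sequences have partial copies elsewhere and are not shown. No member region of any library held 3 telomere repeats (TTAGGG) in a row on either strand.

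Single-copy loci were also divided between the groups. Among 131 tested loci whose words occur once in the hg38 chromosomes, 55 were higher and 71 lower, and 9 were read in all 4 libraries. Among 138 loci shared with another chromosome end, 62 were higher, 59 lower and 15 read in all 4. In a fit on single-copy regions alone, 51 of 120 end loci were higher and 65 lower, beside 12619 and 12612 of 25677 autosomal loci. Only 20.8% to 27.3% of the member regions were single-copy, against 36.6% to 41.0% of the other regions.

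The last comparison followed the reads with distance from the chromosome end. In the outer 100 kb, contacts per resolved Mb came to 1264, 1246, 663 and 725 RPM, and at 400 to 500 kb to 96.95, 117.0, 94.6 and 96.4. Without 4p and 18p the outer 100 kb held 352, 345, 320 and 400, and the innermost 100 kb 95.2, 117, 100 and 102, so the order was kept in each library without those ends. Hemin libraries exceeded untreated ones at 200 to 300 kb (241 and 250 against 166 and 154), and lay below them at 300 to 400 kb (91.3 and 95.6 against 163 and 159). These steps were not tested, and the ends share reads through their copies. Single loci also weighed on them. Without 4p and 18p, the 5p locus 32660 to 32729 held 2212 of 6147 and 2494 of 8150 reads of the outer 100 kb after hemin. In untreated cells the DOCK8 locus held 2750 of 8523 and 2999 of 8429 reads at 200 to 300 kb.

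**Figure D5:**
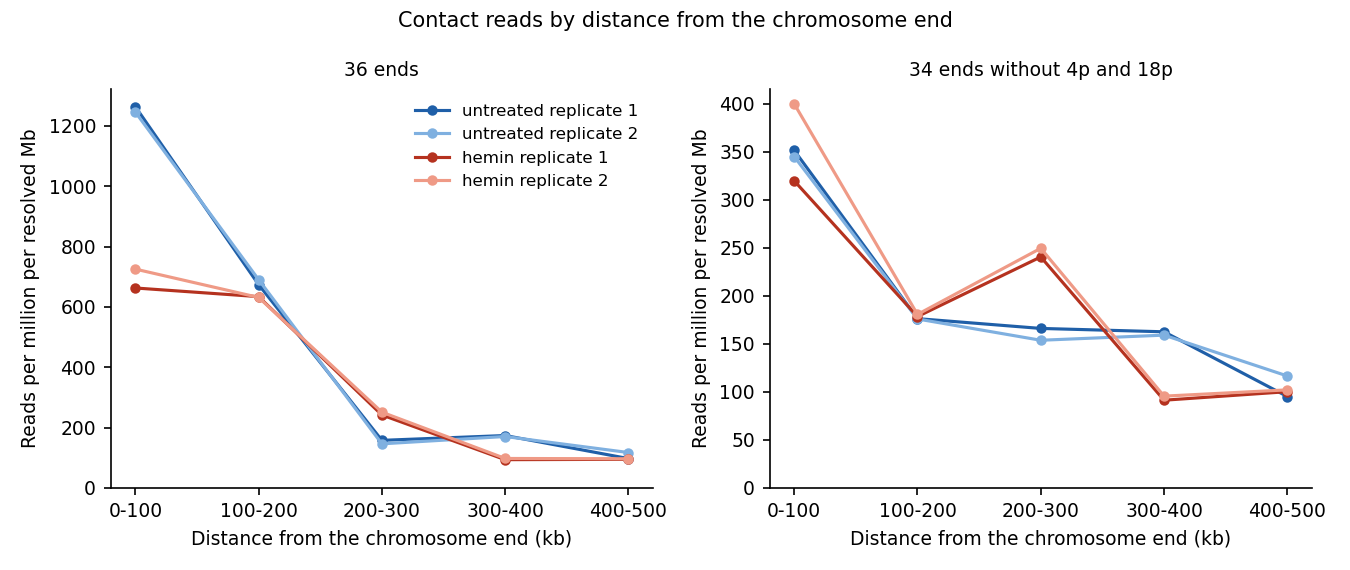
RPM per resolved Mb in steps of 100 kb from the chromosome end, for all 36 ends (left) and without 4p and 18p (right), with 1 line for each library. All lines end lower at the innermost than at the outermost step, and the groups cross between 200 and 400 kb in the right panel.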

How the data were processed

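The data were 4 libraries of 4C in K562 cells, 2 untreated and 2 with hemin. Per the study's methods, the authors trimmed reads with cutadapt 3.5, aligned them to hg38 with BWA 0.7.17-r1188 and used SAMtools 1.14 and bedtools 2.29.1. The deposited count for each region is its number of reads, with mates counted singly and no removal of duplicates stated. Beside these, the authors deposited for each group the regions found in both replicates after reads made wholly of repeats were removed, with a signal per region (mean reads), and only their positions were used, for the repeat-filtered alternative. Columns that could not be matched to a sample numbered 0. The chromosome ends, gene lists and tests were chosen with earlier results of these data known.

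Regions within 10 kb of the viewpoint copies were left out. Counts were summed over ends and windows of 500 kb and over contact loci, and tested with edgeR 4.0.16 (R 4.3.3, TMM, quasi-likelihood, Benjamini-Hochberg, adjusted p under 0.05) where at least 10 reads lay in at least 2 libraries. DESeq2 1.42.0, the tool the authors used, was an alternative, as were other scalings, filters and end sizes and leaving out each library. Shares were compared by exact permutation (scipy 1.17.1, two-sided). The scripts were tested on simulated data. Copies were found by 32-base words of hg38. Ratios against a few reads carry 95% counting intervals. Reads lack molecular identifiers, so intervals and floors cover counting error only.

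Ends were named with their test where they were among the 4 highest or 4 lowest called fold changes or the 4 with most reads. Loci were named where they had the most reads (6), the largest changes at a mean of at least 100 normalized reads (5 each way), the highest lowest count (5) or lay nearest to a chromosome end (3). Others are marked as chosen after their values were seen, or stand as examples of a counted group.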

Additional observations from a re-analysis of the deposited data

How the results depend on the processing

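The share of reads in the ends differed by -0.146 percentage points (hemin minus untreated). It was -0.168 in repeat-filtered regions, -0.232 in single-copy regions, -0.0841 with the viewpoint copies included, -0.372 outside the acrocentric chromosomes, -0.114 with ends of 250 kb and -0.0915 with ends of 1 Mb. It turned to 0.0143 with each region counted once and to 0.00755 without 4p and 18p. The median over the ends of the ratio to the rest of the chromosome, averaged over the libraries of a group (0.623 untreated, 0.497 hemin), was 0.716 and 0.679 per EcoRI site, 1.03 and 1.11 with regions counted once, 0.317 and 0.258 in single-copy regions, 0.491 and 0.421 in repeat-filtered regions, 1.69 and 1.11 against the median window, 0.841 and 0.843 for 250 kb, and 0.652 and 0.634 for 1 Mb. Ends higher after hemin numbered 8, but 5 at an adjusted p under 0.01, 3 with regions counted once and 0 with that and a filter of 2 regions, where 10 of 35 ends had an unadjusted edgeR p under 0.05. Ends lower numbered 17, but 2 in both settings with regions counted once. Over all windows these 2 settings called 231 higher and 230 lower of 1323, and 173 higher and 244 lower of 5358. The filter of 2 and leaving out 4p and 18p were chosen after seeing the data. Without 1 library, 6 to 9 ends were higher and 16 to 19 lower, and 125 to 138 loci higher and 79 to 171 lower. DESeq2 called 11 and 19 ends, beside 2350 and 2186 of all 5379 windows. Higher loci came to 96 with a filter of 50 reads, 85 in repeat-filtered and 51 in single-copy regions. Lower loci came to 102 and 65 in those 2 kinds of region and to 104 with regions within 2.5 kb merged. Of 332 alternative values of named ends and loci, 286 kept direction and call, 41 lost the call and 5 turned. Those that turned were 8p (0.0335) and 14q (-0.0725) with regions counted once, 14q (-0.239) with the filter of 2 regions as well, 9p with ends of 250 kb (0.412) and 18p in repeat-filtered regions (0.305). Fewer regions were tested where regions were filtered, merged or counted once, and other causes were not tested.

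The replicate numbers were not used to pair the samples, and the labels do not say whether same-numbered libraries were handled together. Deviations of same-numbered libraries had a correlation of 0.00316 over windows and -0.0380 over loci, which does not settle the pairing. With the number as a block, 5 ends were higher and 17 lower, beside 1698 and 1777 of all 5379 windows. By edgeR 0 end loci were higher and 0 lower, and 0 of all 42689 autosomal loci were called in either direction. An unadjusted edgeR p under 0.05 was found at 115 of 349 end loci and at 16329 of all loci.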
